A study of Mus musculus with 2 samples.

Results

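The 10 genes described here encode junction proteins and transporters of the blood-brain barrier: Cldn5, Ocln, Tjp1, Slco1a4, Slco1c1, Abcb1a, Abcg2, Mfsd2a, Slc7a5 and Slc16a1. They were taken by symbol from the 31053 genes of the count matrices, and each symbol matched 1 gene. In GENCODE M21 (GRCm38) Cldn5 spans chr16:18776847-18778262, Ocln chr13:100496507-100552718, Tjp1 chr7:65296165-65527781, Abcb1a chr5:8660077-8748575, Mfsd2a chr4:122946850-122961188, Slc7a5 chr8:121881150-121907694 and Slc16a1 chr3:104638668-104658462. The other members lie on chromosome 6, Slco1c1 at chr6:141524368-141570177, Slco1a4 at chr6:141805440-141856199 and Abcg2 at chr6:58584523-58695676. Male C57/BL6 mice had the middle cerebral artery blocked for 60 minutes at postnatal day 10 (MCAO), and lateral striata were dissected once 2 weeks of reperfusion had passed. The ipsilateral library came from the side of the occlusion and the contralateral library from the other hemisphere, with striata of 3 animals pooled in each. Both hemispheres are labelled as MCAO tissue, so the contralateral side is not tissue of animals without an occlusion. Fluorescence sorting kept cells carrying A2B5, O4 or both, antigens that select the oligodendrocyte lineage, so the endothelial cells are cells that the sort was not set for. With 1 library per side there is no replicate check and no test, and all intervals below are 95% intervals that cover counting error only.

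The blood-brain barrier is formed by endothelial cells whose tight junctions seal the gap between neighbouring cells. Because little passes between the cells, nutrients enter through transporters in the membrane, while efflux pumps return drugs and other compounds to the blood. The genes are therefore read mainly in endothelial cells, where junction proteins and carriers together mark the differentiated barrier state, although several of the carriers are also made by glia.

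Expression was measured by droplet sequencing as UMIs, molecular tags that count captured RNA molecules once, for every gene in each cell barcode. The ipsilateral library held 54788795 UMIs in 2775 barcodes (median 17607 per barcode) and the contralateral library 36063045 UMIs in 2066 barcodes (median 13238.5), with 0 barcodes shared. Barcodes with at least 500 genes and at most 15% mitochondrial UMIs were kept, 2505 ipsilaterally and 1913 contralaterally. A barcode was called endothelial where the junction gene Cldn5, the vascular endothelial growth factor receptor gene Flt1 and the endothelial surface genes Ly6c1 and Pecam1 summed to at least 20 per 10000 UMIs. This gave 129 ipsilateral barcodes with 1242310 UMIs (median 8638) and 185 contralateral barcodes with 1687327 UMIs (median 8371). They were 5.15% (4.32 to 6.09) of ipsilateral and 9.67% (8.38 to 11.1) of contralateral kept barcodes, a difference of -4.52 percentage points (-6.16 to -2.93) between libraries whose sort was not set for them. The gate had few barcodes near its threshold: the highest sum outside it was 12.1 per 10000 ipsilaterally and 7.10 contralaterally, and the lowest inside it 25.0 and 35.2.

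The endothelial label was checked against 8 markers that the gate did not use. Cdh5, which encodes the cadherin of endothelial junctions, stood at 408 ipsilateral and 417 contralateral CPM, the usual library-size scaling applied to all UMIs of the cell type. Tek, a receptor gene of endothelial cells, stood at 253 ipsilateral and 271 contralateral CPM, and Egfl7, a secreted endothelial factor, at 877 and 927 CPM. In the larger types compared below, these genes were at 0 to 4.85 CPM ipsilaterally and 0 to 8.25 CPM contralaterally. Of the 8 markers 7 were lower ipsilaterally, most so Emcn and Kdr, which are given below. Erg, an endothelial transcription factor gene, was seen in only 27.9% of ipsilateral and 22.7% of contralateral endothelial barcodes. Transcripts of other cell types were also present. The summed mature oligodendrocyte markers reached 684 CPM in ipsilateral and 364 CPM in contralateral endothelial barcodes, and the committed oligodendrocyte markers 175 and 27.3 CPM. Mural markers, of pericytes and smooth muscle, reached 127 and 61.0 CPM, whereas microglial markers were at 1.61 and 1.78 CPM and fibroblast markers at 3.22 and 0 CPM. Of the endothelial barcodes, 7 of 129 ipsilateral and 5 of 185 contralateral ones also passed the gate of another type. They were kept, and the values without them, from 122 ipsilateral and 180 contralateral barcodes, are given in a paragraph of their own.

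The barrier genes were close to each other on the 2 sides in endothelial barcodes, and the largest difference was in the amino acid transporter Slc7a5. A gene was counted as past the fold where its log2 ratio, ipsilateral over contralateral with 5 CPM added to each value, was at least 1 in size. None of the 10 members passed it, where 1.05% of the 9202 genes with at least 20 summed UMIs passed it upward, 0.739% downward and 1.79% in either direction. The ratio was below 0 for 9 of 10 members, with a median of -0.10, against 47.1% of all genes tested and a median of 0.02. Without barcodes that passed another gate it was below 0 for 7 of 10, with a median of -0.03. Summed over the 9 members that did not help to choose the barcodes, 8221 ipsilateral and 12073 contralateral UMIs gave 6618 and 7155 CPM, a ratio of 0.925 (0.899 to 0.951). That difference, -0.11 on the log2 scale, was -0.05 without the barcodes that passed another gate. The fullest barcode held at most 5.00% of the UMIs of any member in either library.

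**Figure D1:**
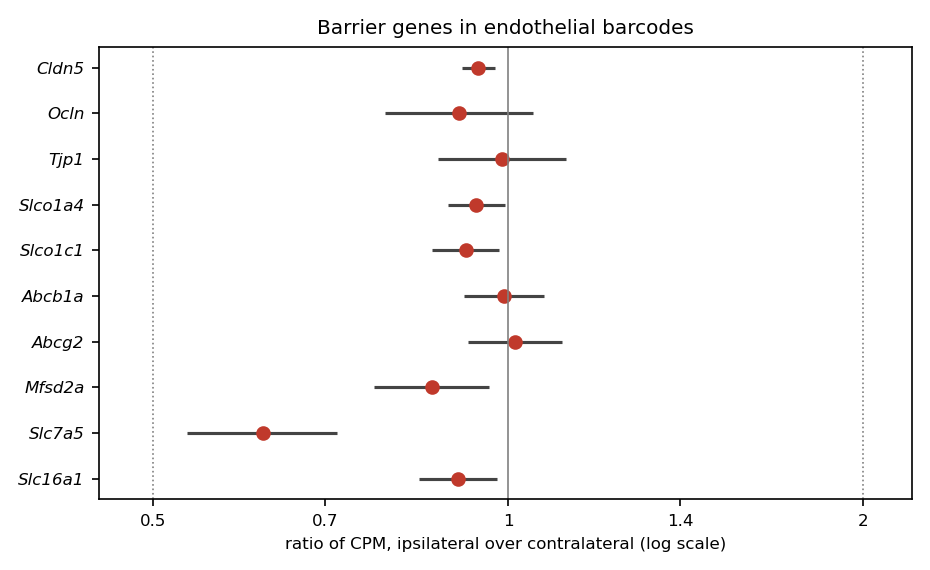
Ratio of CPM, ipsilateral over contralateral, of each of the 10 barrier genes in endothelial barcodes (129 ipsilateral, 185 contralateral); points are ratios, bars their 95% counting intervals, on a log axis with dotted lines at ratios of 0.5 and 2. Slc7a5 lies at 0.619 and the other genes between 0.861 and 1.01.

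The junction genes were at similar levels on both sides. Cldn5 encodes claudin-5, which builds the sealing strands of brain endothelial junctions, and it is also a gate gene. It had 6049 ipsilateral and 8706 contralateral UMIs, or 4869 and 5160 CPM, a ratio of 0.944 (0.913 to 0.975), or -0.08 on the log2 scale. This was -0.03 without barcodes that passed another gate, and also -0.03 with each barcode weighted equally. Ocln encodes occludin, a membrane protein of the same strands. It had 320 ipsilateral and 478 contralateral UMIs, or 258 (230 to 287) and 283 (258 to 310) CPM, and the ratio of 0.909 had an interval that includes 1 (0.787 to 1.05). Tjp1 encodes the scaffold ZO-1, which ties claudins and occludin to the actin skeleton. It had 438 ipsilateral and 602 contralateral UMIs, or 353 (320 to 387) and 357 (329 to 386) CPM, a ratio of 0.988 (0.872 to 1.12). For Ocln and Tjp1 the 2 sides thus overlapped.

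Over all endothelial barcodes the efflux pumps did not separate the sides. Abcb1a encodes P-glycoprotein, which pumps lipophilic drugs back into the blood. It had 1092 ipsilateral and 1495 contralateral UMIs, or 879 (828 to 933) and 886 (842 to 932) CPM, a ratio of 0.992 (0.917 to 1.07). Its count is uncertain because 21.7% of its 31-base words also occur in transcripts of the near copy Abcb1b, which itself had 0 ipsilateral and 1 contralateral UMI in these barcodes. Abcg2, the breast cancer resistance protein gene, encodes the other main drug pump of the barrier. It had 814 ipsilateral and 1091 contralateral UMIs, or 655 (611 to 702) and 647 (609 to 686) CPM, and its ratio of 1.01 (0.924 to 1.11) was the only one of the 10 above 1.

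The organic anion carriers and the lipid and monocarboxylate carriers were slightly lower ipsilaterally. Slco1a4 encodes a carrier of organic anions and drugs. It had 2105 ipsilateral and 3043 contralateral UMIs, or 1694 and 1803 CPM, a ratio of 0.940 (0.888 to 0.994). Slco1c1 encodes the carrier that brings thyroxine into the brain. It had 1527 ipsilateral and 2254 contralateral UMIs, or 1229 and 1336 CPM, a ratio of 0.920 (0.862 to 0.982). Both intervals end just under 1, so these differences are small against counting error alone. Mfsd2a encodes the carrier of lysophosphatidylcholine with docosahexaenoic acid, and it also restrains vesicle transport across the endothelium. It had 518 ipsilateral and 817 contralateral UMIs, or 417 (382 to 454) and 484 (452 to 519) CPM, a ratio of 0.861 (0.770 to 0.963). Slc16a1 encodes MCT1, which carries lactate and ketone bodies. It had 1139 ipsilateral and 1705 contralateral UMIs, or 917 (864 to 972) and 1010.5 (963 to 1059.6) CPM, a ratio of 0.907 (0.841 to 0.979). Its log2 ratio of -0.14 was -0.02 without the barcodes that passed another gate.

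Slc7a5 encodes LAT1, the exchanger that brings large neutral amino acids, thyroid hormone and levodopa across the barrier. It had 268 ipsilateral UMIs against 588 contralateral UMIs, or 216 (191 to 243) and 348 (321 to 378) CPM. The intervals of the 2 levels did not overlap, and the ratio was 0.619 (0.534 to 0.716), a log2 ratio of -0.68. Of the 9202 genes tested, 191 (2.08%) had a ratio as low or lower, whereas 20.7% did for Mfsd2a, the next lowest member. The value was not carried by a few barcodes, as the fullest one held 3.36% of the ipsilateral and 2.21% of the contralateral UMIs. Without barcodes that passed another gate it was -0.65 on the log2 scale, at 230 ipsilateral and 363 contralateral CPM. Slc3a2, whose product pairs with LAT1 at the membrane, did not share the difference and had 979 ipsilateral and 855 contralateral CPM, a ratio of 1.15 (1.06 to 1.24). Bsg, the chaperone of MCT1, had 19471 and 20195 CPM in ipsilateral and contralateral endothelial barcodes. These partner genes were picked for their role after the values were seen.

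The barcodes that also passed another gate bore on most of these small differences. Without them the ratio of Cldn5 was 0.976 (0.944 to 1.01), of Ocln 0.953 (0.822 to 1.10) and of Tjp1 1.04 (0.910 to 1.18). The ratios of Slco1a4, at 0.985 (0.930 to 1.04), Slco1c1, at 0.936 (0.875 to 1.001), and Slc16a1, at 0.986 (0.913 to 1.06), then had intervals that include 1, as had Abcb1a at 1.03 (0.953 to 1.12) and Abcg2 at 1.06 (0.964 to 1.16). Mfsd2a at 0.861 (0.768 to 0.965) and Slc7a5 at 0.632 (0.543 to 0.734) stayed below 1. The log2 ratios of Tjp1, Abcb1a and Abcg2 were then above 0, at 0.05, 0.05 and 0.08.

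Values of single barcodes were examined next. Slc7a5 ranged over ipsilateral endothelial barcodes from 0 to 7.81 per 10000 UMIs with a median of 1.82, and over contralateral ones from 0 to 14.2 with a median of 3.29. It had no UMI in 31 of 129 ipsilateral and 27 of 185 contralateral barcodes. The distributions overlapped widely, and the ipsilateral one lay lower. Cldn5 ranged from 5.37 to 137 per 10000 ipsilaterally (median 51.0) and from 10.8 to 116 contralaterally (median 52.8). Every endothelial barcode thus held it, which is partly set by the rule because it is a gate gene. Mfsd2a had medians of 2.73 ipsilaterally and 4.01 contralaterally, with highest values of 25.1 and 19.2. Slc16a1 was uneven between barcodes: its medians were 4.31 ipsilaterally and 4.18 contralaterally, yet single barcodes reached 64.3 and 55.5 and 25 of 129 and 29 of 185 had none.

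**Figure D2:**
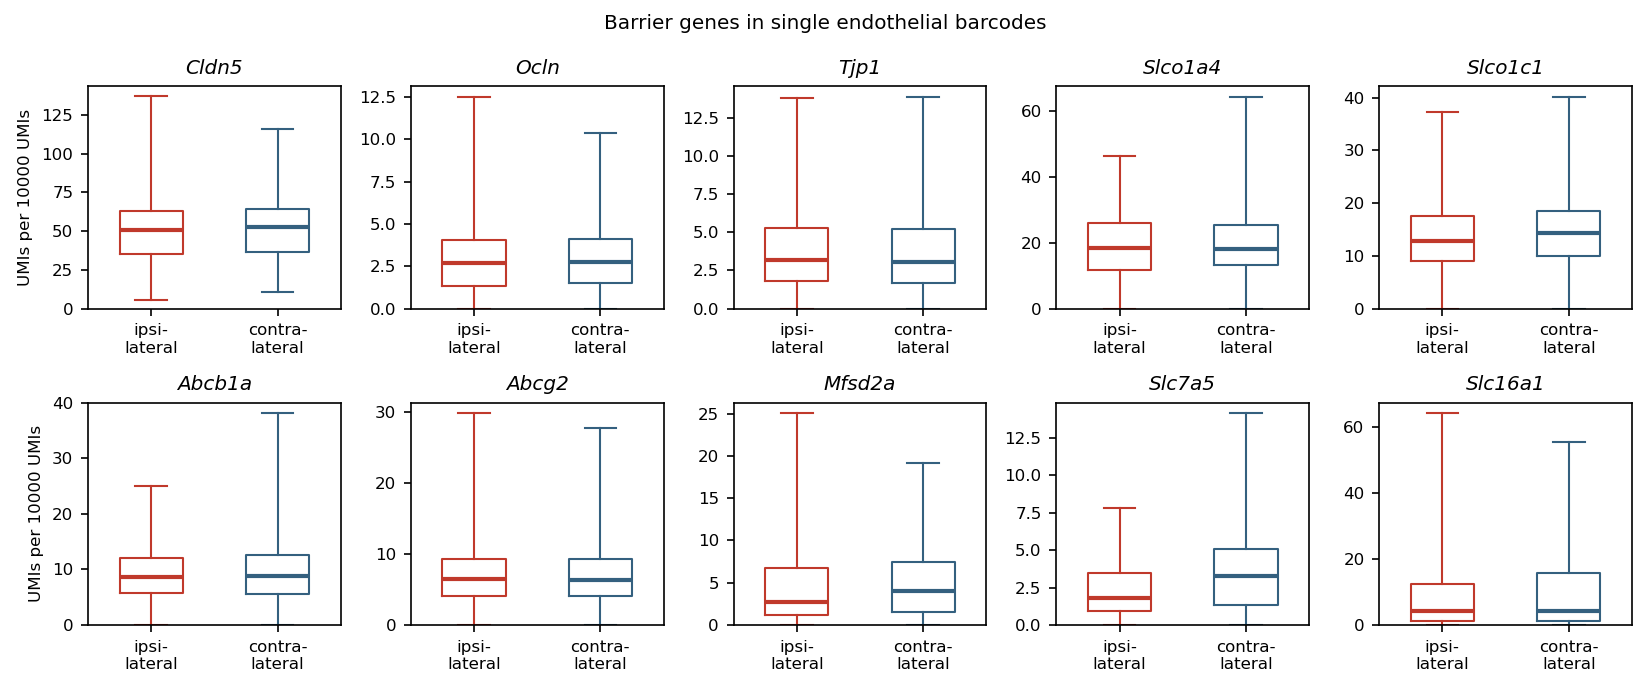
UMIs per 10000 of each barrier gene in single endothelial barcodes, ipsilateral (left box, 129 barcodes) beside contralateral (right box, 185 barcodes); boxes show quartiles and median, whiskers reach the lowest and highest barcode. Slc7a5 has medians of 1.82 ipsilaterally and 3.29 contralaterally, while Cldn5 has 51.0 and 52.8.

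To compare detection at equal depth, each barcode was thinned to 5276 UMIs, which left 117 ipsilateral and 165 contralateral endothelial barcodes and dropped 12 and 20 shallower ones. Slc7a5 was then detected in 58.1% of ipsilateral and 77.6% of contralateral barcodes, a difference of -19.5 points (-30.7 to -7.93). Without thinning the shares were 76.0% and 85.4%, and in thinned neuroblasts, where Cldn5 was found in 1.36% ipsilaterally and 1.29% contralaterally, Slc7a5 was found in 2.45% and 3.08%. Over 100 draws of the thinning, a repeat added after seeing the data, the difference averaged -15.9 points and lay between -24.1 and -7.27. Ocln was detected in 72.6% of ipsilateral and 83.0% of contralateral barcodes in the first draw, but over the 100 draws its difference averaged -5.16 points and lay between -15.6 and 7.04, so no difference is read from it. The difference for Mfsd2a, at 70.1% ipsilaterally and 77.6% contralaterally, had an interval that includes 0 (-18.5 to 3.31 points). Cldn5 was found in 100% on both sides, which is partly set by the rule because it is a gate gene. With a gate that leaves it out it was also found in 100% on both sides. Slco1a4, Slco1c1, Abcb1a and Abcg2 were found in 94.9% to 97.4% of ipsilateral and 95.8% to 97.0% of contralateral barcodes. The counts of all 10 genes that follow include Cldn5. All 10 genes together were detected in 21 of 117 ipsilateral barcodes (17.9%) and 54 of 165 contralateral ones (32.7%), with a median of 9 genes on each side. Over the 100 draws these shares averaged 22.8% and 34.9%, with a difference of -19.8 to -4.77 points. The share with all 10 includes Slc7a5, whose own difference was the largest, followed by Mfsd2a with an average of -7.33 points. It is thus not separate from the Slc7a5 result, and it was not computed without that gene. The unthinned shares were 44.96% and 56.8%.

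The genes differed in how far they were confined to endothelium. Among the 6 types with at least 50 barcodes per library, the 9 members outside the gate had their highest level in endothelial barcodes on both sides. So had Cldn5, for which the gate fixes this rank. The other types were mature oligodendrocytes (1059 ipsilateral and 594 contralateral barcodes), committed oligodendrocytes (236 and 122), oligodendrocyte precursors (358 and 296), neuroblasts (420 and 435) and astrocytes (82 and 77). Cldn5 outside endothelium was at 1.38 to 2.95 CPM ipsilaterally and 2.83 to 4.76 CPM contralaterally, and neighbours in that order overlapped. These levels are low partly by the rule, since barcodes rich in Cldn5 are called endothelial. Ocln, Slco1a4 and Abcb1a were likewise at 0 to 1.38 CPM ipsilaterally and 0 to 4.25 CPM contralaterally in these 5 types. Where such a gene had no UMI, as Ocln in ipsilateral precursors, 3 counts would have been 0.632 CPM. Free RNA of 1 source carries its genes in 1 ratio. The level that a gene would have at its endothelial proportion to Cldn5 is therefore given for the main values below. Cldn5 is a gate gene, so the rule lowers these levels in advance, and no source is read from them. The part of free RNA was not tested.

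**Figure D3:**
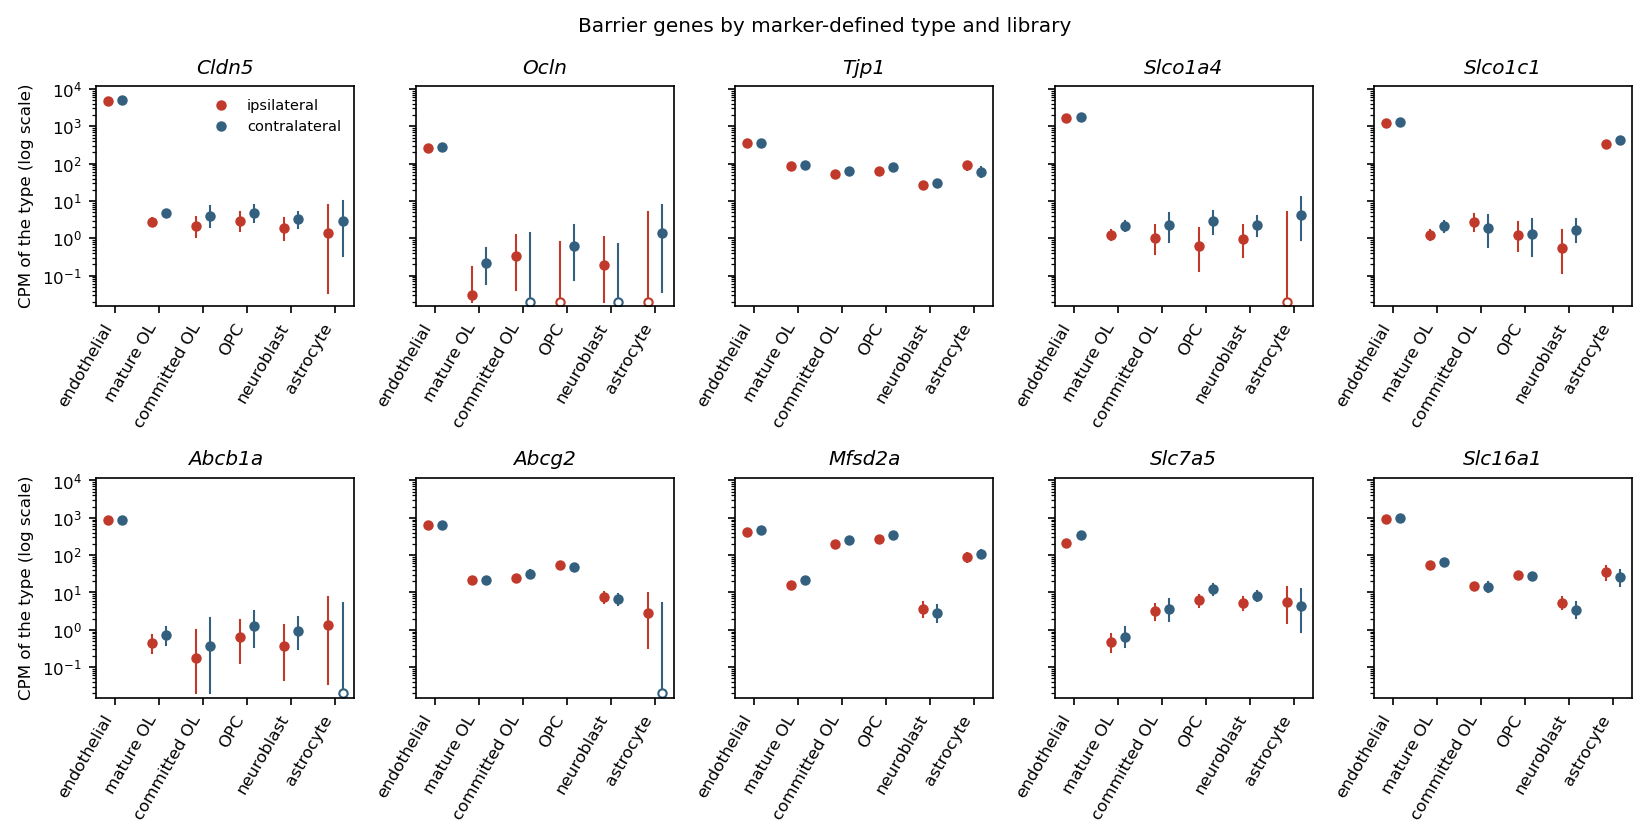
CPM of each barrier gene (log axis) in 6 marker-defined cell types, ipsilateral in red left of contralateral in blue; bars are 95% counting intervals, and open points at the foot stand for sums of 0 UMIs. Cldn5, Ocln, Slco1a4 and Abcb1a stand high in endothelial barcodes alone, while Mfsd2a is also at 269 ipsilateral and 342 contralateral CPM in precursors and Slco1c1 at 334 and 429 CPM in astrocytes.

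Mfsd2a was abundant in early oligodendrocyte stages. Oligodendrocyte precursors had 269 (254 to 284) ipsilateral and 342 (322 to 363) contralateral CPM, 64.4% and 70.6% of the endothelial level, where the proportion to Cldn5 in endothelium would have given 0.253 and 0.447 CPM. Committed oligodendrocytes had 200 ipsilateral and 254 contralateral CPM, and mature oligodendrocytes 16.1 and 21.7 CPM. The ratio was 0.79 (0.72 to 0.85) in precursors, 0.79 (0.71 to 0.87) in committed and 0.74 (0.65 to 0.85) in mature oligodendrocytes, so the ipsilateral level was the lower one at each stage. After thinning, precursors with a UMI were 67.2% ipsilaterally and 79.2% contralaterally (-12.1 points, -19.1 to -4.82), against 1.63% and 1.80% of neuroblasts. Over the 100 draws the difference in precursors lay between -17.4 and -4.08 points.

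Slco1c1, which astrocytes also use to take up thyroid hormone, had 334 (294 to 379) ipsilateral and 429 (382 to 480) contralateral CPM in astrocytes, 27.2% and 32.1% of the endothelial level, where the proportion to Cldn5 would have given 0.347 and 0.734 CPM. The ratio was 0.78 (0.66 to 0.93), and thinned astrocytes with a UMI were 64.7% ipsilaterally and 83.1% contralaterally (-18.4 points, -33.3 to -2.42; -27.3 to -3.26 over the 100 draws). In neuroblasts it was found in 0 of 368 ipsilateral barcodes, which allows a share of up to 0.815%, and in 1.03% of contralateral ones. Slc16a1, through which oligodendrocytes supply axons with lactate, had 56.1 (53.6 to 58.8) ipsilateral and 67.0 (63.3 to 70.9) contralateral CPM in mature oligodendrocytes, a ratio of 0.84 (0.78 to 0.90), where the endothelial proportion would have given 0.523 and 0.917 CPM. Its levels in precursors, 29.3 and 27.6 CPM on the ipsilateral and contralateral side, and in astrocytes, 34.4 and 25.5 CPM, had ratios whose intervals include 1. Abcg2 had 54.6 (48.1 to 61.7) ipsilateral and 48.6 (41.2 to 56.9) contralateral CPM in precursors, where the endothelial proportion would have given 0.397 and 0.597 CPM. In mature oligodendrocytes it had 21.0 and 22.3 CPM. Tjp1, a scaffold of many cell types, was at 26.1 to 89.4 CPM ipsilaterally and 30.7 to 89.9 CPM contralaterally across the 5 types, with 84.5 and 89.9 CPM in mature oligodendrocytes where that proportion would give 0.201 and 0.324 CPM.

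Slc7a5 was low outside endothelium, and the direction of its difference recurred in precursors, with 6.11 (4.09 to 8.78) ipsilateral and 12.4 (8.80 to 16.9) contralateral CPM, a ratio of 0.49 (0.29 to 0.82) from 29 and 39 UMIs, where the endothelial proportion would have given 0.131 and 0.322 CPM. In neuroblasts it had 5.11 ipsilateral and 8.005 contralateral CPM, and the interval of the ratio, 0.64, includes 1 (0.38 to 1.06). No member with at least 20 summed UMIs passed the fold in these types, where 0.145% of genes did in mature oligodendrocytes, 0.291% in committed oligodendrocytes, 0.217% in precursors, 0.14% in neuroblasts and 2.1% in astrocytes. All 9 members measured in mature oligodendrocytes had log2 ratios below 0 (median -0.18), where 53.7% of all genes tested were below 0. In committed oligodendrocytes 5 of 7 were below 0 (median -0.24), against 50.7% of all genes, and in precursors 4 of 6 (median -0.29), against 56.7%. In neuroblasts 3 of 6 lay below 0 (median -0.06), against 43.3% of all genes, and in astrocytes 2 of 4 (median 0.02), against 48.6%. With 4 to 7 members per type, no trend is read from the counts outside mature oligodendrocytes. For Cldn5, Slco1a4 and Abcb1a these are the low levels given above, and the total of each type sets the scale. In mature oligodendrocytes Slco1c1, at 1.26 ipsilateral and 2.09 contralateral CPM, and Slc7a5, at 0.463 and 0.661 CPM, were also low. The ratio intervals of Abcb1a (0.263 to 1.39) and Slc7a5 (0.306 to 1.64) include 1 there. The count of 9 in mature oligodendrocytes thus rests in part on such low levels, whose source was not tested. Across the 12 profiles of type and side, the 2 genes most like each member by Pearson correlation of log2(CPM + 5) were picked out of 13755. They were Ctla2a and Gimap6 for Cldn5, Tek and Ly6a for Ocln, Ly6c1 and Flt1 for Slco1a4, Sult1a1 and Trim12a for Slco1c1, and Cdh5 and Acvrl1 for Abcb1a (all r above 0.99). They were Rgcc (0.99) and Dnajc1 (0.98) for Mfsd2a, Palmd and Rflnb (both 0.99) for Slc7a5, Lrch1 (0.98) and Ehd4 (0.97) for Abcg2, Mkl2 (0.98) and Ppp1r13b (0.97) for Tjp1, and Mkl2 and Slc9a3r2 (both 0.98) for Slc16a1. These coefficients describe 6 types seen in 2 libraries and rest on the contrast of endothelium with the other types.

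The promoter sequences show how unlike the start regions of these genes are. RefSeq windows of 250 bases before the transcription start (GRCm38.p6) were found for 9 of the 10 members, 12 windows in all, and Slc7a5 has no entry. The windows of Slco1a4, Slco1c1 and Abcb1a held 0 CpG dinucleotides, against a median of 6 over 32851 mouse windows, of which 7.87% held none. Those of Cldn5, Mfsd2a, Tjp1 and Slc16a1 held 12, 17, 22 and 37, the 2 windows of Ocln 14 and 22, and the 3 windows of Abcg2 3, 10 and 23. The 2 windows of Ocln overlap. The window of Tjp1, the Ocln window with 22 CpG and 2 of the 3 of Abcg2 lie at other starts than the outermost one of the gene in GENCODE M21. That of Abcb1a (chr5:8566841-8567090, plus strand) lies upstream of the GENCODE M21 span of the gene, which starts at 8660077. Its CpG count and motif matches thus come from a window outside that span. Of 5 short motifs searched on both strands, AGGAAG (ETS factors) was in windows of Slco1a4, Slco1c1, Abcb1a and Abcg2 and in 29.5% of all windows, and GGGCGG (the GC box) in those of Cldn5, Ocln, Tjp1, Abcg2 and Slc16a1 and in 32.7% of all. ACAATG (SOX factors) was in windows of Slco1a4 and Abcg2 and in 10.7% of all, CTTTGA (TCF/LEF factors) in those of Abcb1a and Mfsd2a and in 13.8% of all, and TATAAA in 0 members and 12.4% of all. No binding was measured, and a match is only a match of letters. Slco1c1, with 0 CpG, was at 334 ipsilateral and 429 contralateral CPM in astrocytes, while Cldn5, with 12, and Ocln, with 14 and 22, were low in the 5 other larger types. A link of CpG with cell type was not tested. The windows of Slco1a4 (chr6:141856221-141856470, minus strand) and Slc16a1 (chr3:104638414-104638663, plus strand) are shown 5′ to 3′ as the ends of the range of CpG counts, with CpG in capitals.
Slco1a4: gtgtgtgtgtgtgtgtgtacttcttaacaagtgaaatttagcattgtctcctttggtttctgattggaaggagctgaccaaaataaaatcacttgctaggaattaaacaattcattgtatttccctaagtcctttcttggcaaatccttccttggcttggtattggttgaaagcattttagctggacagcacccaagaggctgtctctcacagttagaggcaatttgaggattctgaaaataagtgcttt
Slc16a1: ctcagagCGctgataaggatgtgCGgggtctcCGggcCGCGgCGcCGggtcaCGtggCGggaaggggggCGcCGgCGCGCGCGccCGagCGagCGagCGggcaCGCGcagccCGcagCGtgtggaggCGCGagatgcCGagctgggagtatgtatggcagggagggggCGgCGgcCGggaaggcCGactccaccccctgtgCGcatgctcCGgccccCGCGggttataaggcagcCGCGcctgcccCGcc

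Endothelial barcodes were also grouped along the vessel tree by markers. The arterial genes were Bmx, Sema3g, Gkn3, Efnb2, Vegfc, Hey1, Jag1, Alpl and Stmn2. Barcodes were artery-marked where these summed to at least 4 per 10000 UMIs and exceeded venous genes. They were vein-marked where venous genes (Nr2f2, Vwf, Slc38a5, Vcam1, Icam1, Lcn2 and Ackr1) did, and neither otherwise. Among the arterial genes Hey1 had the most UMIs, 121 ipsilaterally and 142 contralaterally, while Bmx had 15 and 14. The last 4 of the venous genes, and the arterial gene Stmn2, were past the fold upward ipsilaterally, as given below. The groups thus rest in part on genes that differ between sides, which bears on their shares and side ratios. The groups held 24, 70 and 35 ipsilateral and 39, 85 and 61 contralateral barcodes. Their shares differed between sides by -2.48 points (-11.6 to 7.15) for artery-marked, 8.32 points (-3.37 to 19.8) for vein-marked and -5.84 points (-16.3 to 5.02) for the rest, intervals that all include 0. They depend on the markers: with Slc38a5, itself a transporter gene, taken off the venous list, a choice made after seeing the data, vein-marked barcodes were 40 of 129 ipsilaterally (31.01%) and 33 of 185 contralaterally (17.8%), a difference of 13.2 points (3.11 to 23.4). Slc16a1 was graded along these groups on both sides. It had 395 ipsilateral and 395 contralateral CPM in artery-marked barcodes, 675 and 774 CPM in those with neither mark, and 1158 and 1371 CPM in vein-marked ones. The vein-marked level was 2.93 times (2.32 to 3.76) the artery-marked one ipsilaterally and 3.47 times (2.87 to 4.23) contralaterally. Without Slc38a5 among the markers these were 2.59 (2.05 to 3.31) and 2.78 (2.34 to 3.32) times.

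The lower Slc7a5 level was present in each vessel group. It had 166 ipsilateral and 285 contralateral CPM in artery-marked barcodes, a ratio of 0.583 (0.376 to 0.886). In vein-marked barcodes it had 233 ipsilateral and 394 contralateral CPM, a ratio of 0.591 (0.489 to 0.713), and in the rest 206 and 311 CPM, a ratio of 0.663 (0.490 to 0.889). The intervals of the 3 ratios overlap. Without Slc38a5 among the markers the ratios were 0.590, 0.598 and 0.626, in the same order of groups. The organic anion carriers were lower ipsilaterally in artery-marked barcodes. There Slco1c1 had 1329 ipsilateral and 1782 contralateral CPM (ratio 0.746, 0.640 to 0.867) and Slco1a4 1651 and 2134 CPM (0.774, 0.674 to 0.886). In vein-marked barcodes the ratios were 0.980 (0.895 to 1.07) for Slco1c1 and 0.994 (0.922 to 1.07) for Slco1a4, intervals that lie above those of the artery-marked ratios. In barcodes with neither mark they were 0.968 (0.851 to 1.10) and 0.951 (0.852 to 1.06), intervals that overlap the artery-marked ones. Without Slc38a5 among the markers Slco1a4 had overlapping intervals in artery-marked (0.819, 0.720 to 0.930) and vein-marked barcodes (0.992, 0.890 to 1.11), while those of Slco1c1 stayed apart (0.780, 0.675 to 0.899, and 1.04, 0.908 to 1.19). The efflux pump Abcb1a was also lower ipsilaterally in artery-marked barcodes, at 883 ipsilateral and 1069 contralateral CPM (0.826, 0.682 to 0.998). That interval ends just under 1 and overlaps the one in vein-marked barcodes (1.07, 0.959 to 1.19). The artery-marked values rest on 24 ipsilateral and 39 contralateral barcodes.

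**Figure D4:**
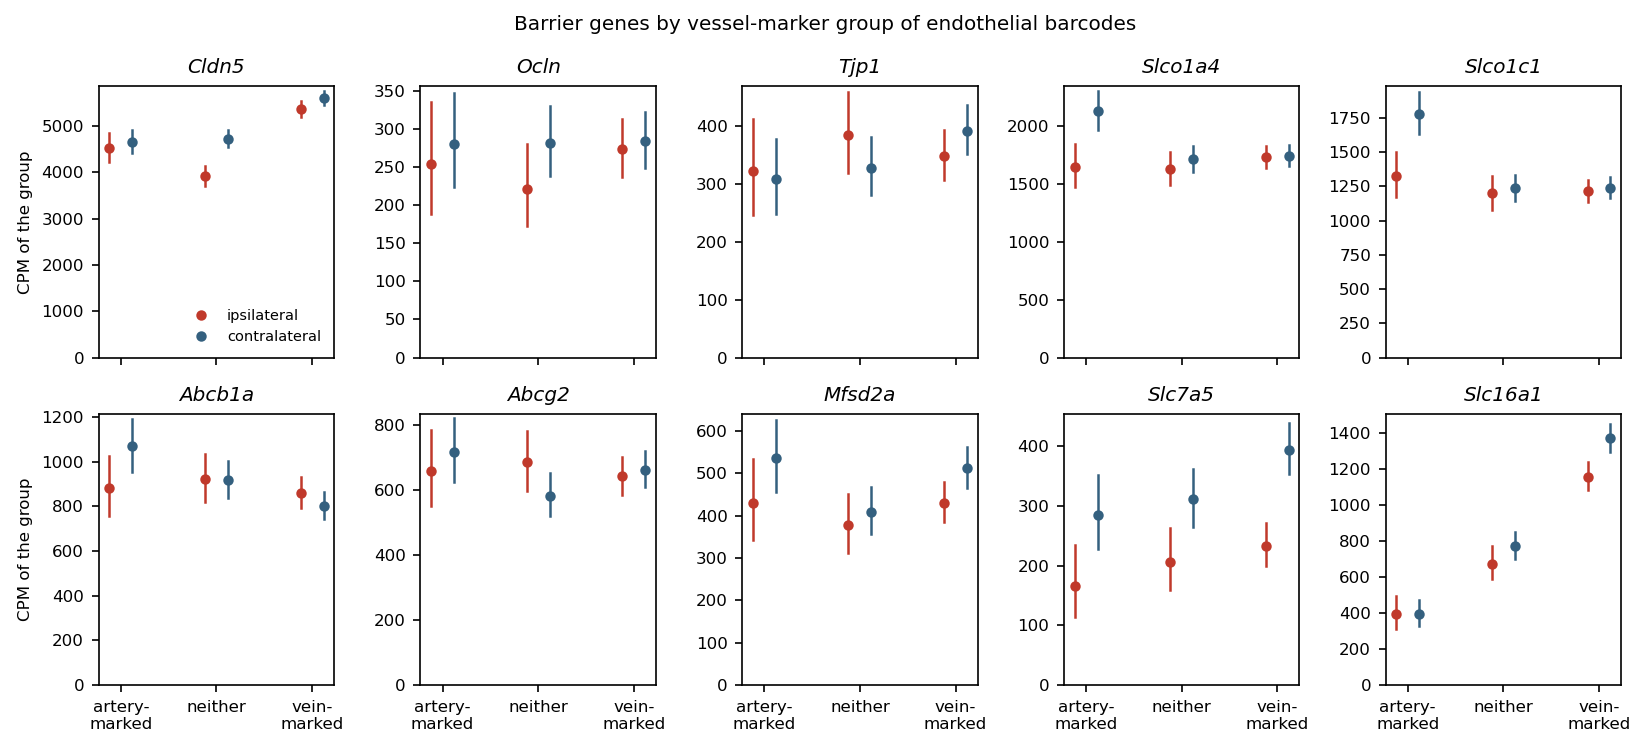
CPM of the barrier genes in artery-marked (24 ipsilateral, 39 contralateral), neither (35, 61) and vein-marked (70, 85) endothelial barcodes, ipsilateral in red left of contralateral in blue, with 95% counting intervals. Slc16a1 is highest in vein-marked barcodes on both sides, and Slc7a5 is lower ipsilaterally in each group.

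Other genes of the barrier, from lists chosen for their role, were examined in the same endothelial barcodes. Of 20 further junction genes 14 had at least 20 summed UMIs, with 1 past the fold upward, 0 downward and a median log2 ratio of 0.08. The gene was Jam3, a junctional adhesion molecule, with 39.4 ipsilateral and 11.9 contralateral CPM from 49 and 20 UMIs. Jam3 is also an oligodendrocyte gene, at 437 ipsilateral and 435 contralateral CPM in mature oligodendrocytes. Without the endothelial barcodes that passed another gate it had 14.6 ipsilateral and 7.58 contralateral CPM, a log2 ratio of 0.64 that is no longer past the fold. Nectin2, an adherens junction protein, had 41.9 ipsilateral and 22.5 contralateral CPM (log2 ratio 0.77), and Jup, plakoglobin, 112 and 133 CPM (-0.24).

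Of 30 further barrier transporters 25 were measured, 0 passed the fold and the median was -0.04. The largest differences were in Slc5a6, the carrier of biotin and pantothenate, with 22.5 ipsilateral and 36.2 contralateral CPM (log2 ratio -0.58), Tfrc, the transferrin receptor that brings in iron, with 327 and 446 CPM (-0.44), and Slc7a1, the carrier of arginine and lysine, with 398 and 523 CPM (-0.39). All 3 were lower ipsilaterally, whereas Slc2a1, the glucose transporter, had 2490 ipsilateral and 2320 contralateral CPM, a ratio of 1.07 (1.02 to 1.13). Slc2a1 was picked for its role after the values were seen. Of 21 genes of the Wnt pathway and of transcription factors that induce the barrier, all 21 were measured, 0 passed the fold and the median was 0.01. The Wnt target Apcdd1 had 17.7 ipsilateral and 27.9 contralateral CPM (-0.53), the Wnt transcription factor Tcf7 63.6 and 46.2 CPM (0.42), and the Wnt co-activator Adgra2 52.3 and 69.3 CPM (-0.38).

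Past the fold were also 2 leukocyte adhesion genes. Of 15 genes of transcytosis, permeability and adhesion 9 were measured, with 2 past the fold upward, 0 downward and a median of 0.05. Icam1, an adhesion molecule for leukocytes, had 163 ipsilateral and 74.1 contralateral CPM (log2 ratio 1.09), and Vcam1, another, 73.3 and 30.2 CPM (1.15). Without their fullest barcode on each side the log2 ratios were 1.12 for Icam1 and 1.26 for Vcam1, and without barcodes past another gate 1.10 and 1.13. With 20 CPM added in place of 5 they were 0.96 and 0.89, no longer past the fold. Icam1 was seen in 39 ipsilateral and 40 contralateral barcodes and Vcam1 in 15 and 13, so single cells carry much of these sums. Angpt2, a vessel-destabilising ligand, had 107 ipsilateral and 87.7 contralateral CPM (0.27). Plvap, named for its role after the values were seen, the protein of fenestral diaphragms that the barrier lacks, had 0 ipsilateral and 3 contralateral UMIs.

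General endothelial genes were mostly somewhat lower ipsilaterally: of 13 measured, which include the member Abcb1a, 0 passed the fold, 12 were below 0 and the median was -0.05. Emcn, an endothelial surface mucin, had 647 ipsilateral and 888 contralateral CPM (log2 ratio -0.45), Kdr, the main receptor of vascular endothelial growth factor, 506 and 673 CPM (-0.41), and Eng, a co-receptor of transforming growth factor beta, 633 and 719 CPM (-0.18). Among the gate genes Flt1 had 2027 ipsilateral and 2590 contralateral CPM (-0.35), Ly6c1 3643 and 4008 CPM (-0.14) and Pecam1 575 and 532 CPM (0.11). Of 9 arterial genes 8 were measured, with Stmn2 past the fold upward and a median of -0.10. Bmx had 12.1 ipsilateral and 8.30 contralateral CPM (0.36) and Vegfc 20.1 and 26.1 CPM (-0.31). Stmn2, also a neuronal gene, had 24 of its 37 ipsilateral UMIs in 1 barcode and 18 UMIs contralaterally. All 7 venous genes were measured, with 4 past the fold upward and a median of 1.09. Setting Ackr1, the highest of the 7, at its bound could not change this median. The median was 0.53 without the fullest barcode of each gene, when Ackr1 had 0 UMIs on both sides. Over the other 6 genes it was then 0.83. Ackr1, a chemokine receptor of venules, had all 106 ipsilateral UMIs in 1 barcode and 0 contralateral UMIs, where 3 counts would be 1.78 CPM. Lcn2, an inflammatory secreted protein, had 210 of 247 ipsilateral UMIs and 25 of 38 contralateral UMIs in 1 barcode each. The other 2 past the fold were Icam1 and Vcam1, already counted among the adhesion genes. The remaining venous genes did not pass it. Vwf had 237 ipsilateral and 159 contralateral CPM (log2 ratio 0.56), Slc38a5 345 and 328 CPM (0.07) and Nr2f2 46.7 and 51.6 CPM (-0.13).

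**Figure D5:**
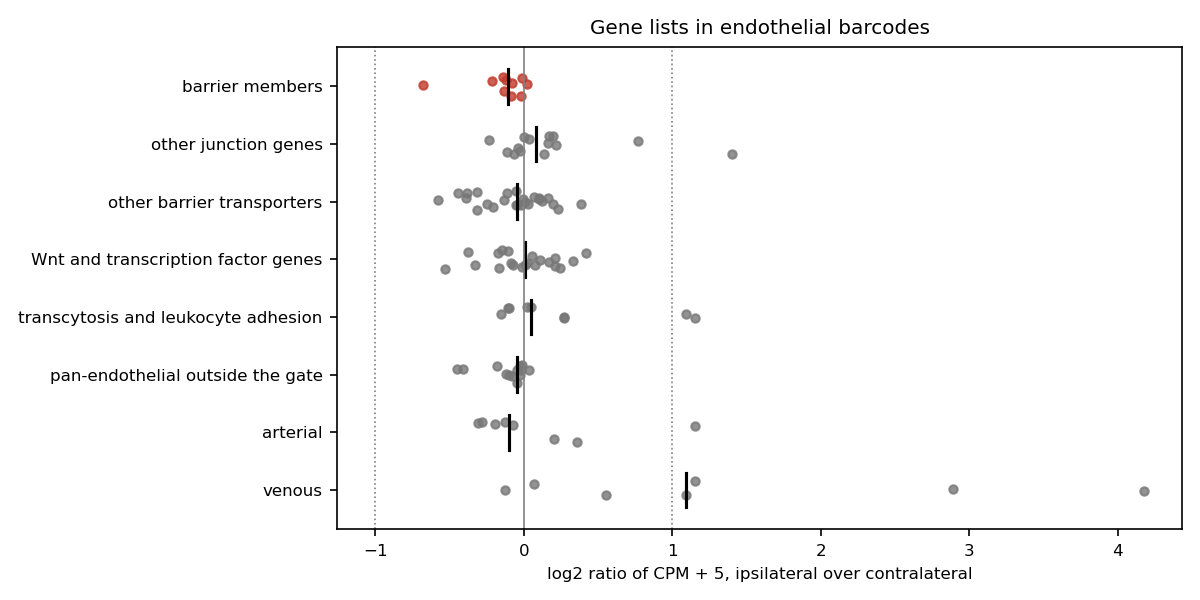
Log2 ratio, ipsilateral over contralateral with 5 CPM added, of each gene with at least 20 summed UMIs in endothelial barcodes, by list; black bars are list medians and dotted lines mark -1 and 1. The 10 barrier genes have a median of -0.10 and none past the lines. The venous list has a median of 1.09 with 4 genes past them, of which Icam1 and Vcam1 are also on the adhesion list.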

How the data were processed

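The deposited values are UMI counts per gene and barcode that the authors made with Cell Ranger 3.1.0 on mm10, per the submitters' processing notes, with aligner settings not given in the sources used here. Members and gene lists were chosen with earlier results of these data known. Types were set by summed markers per 10000 UMIs, at 40 for mature oligodendrocytes and astrocytes and 20 for other types, endothelium first and otherwise the type furthest past its gate. UMIs were summed per library and type and divided by the type's total (CPM). Sums carry exact Poisson intervals, ratios exact conditional binomial intervals, shares exact binomial intervals and their differences Newcombe intervals, all at 95%. Ratios on the log2 scale use 5 CPM added to both values, which draws low genes toward 0. No test was made with 1 library per side.

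The steps were tested on simulated data before use. Doublets were not removed: Scrublet in scanpy 1.11.5, at an expected rate of 0.05, called 101 of 2505 ipsilateral (4.03%) and 14 of 1913 contralateral barcodes (0.732%), 4 and 3 of them endothelial, and leaving these out was an alternative. Named genes are all members, the gate genes, the 3 genes of each list with the largest absolute log2 ratio among those with at least 20 summed UMIs, and the 2 genes most like each member. Cdh5, Tek, Egfl7, Erg, Plvap, Abcb1b, Slc3a2, Bsg, Slc2a1, Sema3g, Gkn3, Efnb2, Hey1, Jag1, Alpl, Nr2f2, Slc38a5 and Vwf were named outside this rule. The limit of the likeness measure to types with at least 50 barcodes in each library was added after the counts were seen. Shared sequence was counted as 31-base words of GENCODE M21 transcripts (GRCm38), with which the files' gene IDs matched for all 10 members. Values were computed in Python 3.11.15 with numpy 2.4.6, scipy 1.17.1 and pandas 2.3.3, and drawn with matplotlib 3.10.9. Free RNA could not be measured from empty droplets, which were not analysed here. The alternatives changed the gates, the filters on barcodes, doublet treatment, scaling, weighting, depth, the added CPM and the minimum of UMIs.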

Additional observations from a re-analysis of the deposited data

Results flagged for a closer look

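Abcg2 gave a signal outside the cell types compared. Barcodes that passed no gate, 198 ipsilaterally and 184 contralaterally, held 19.5 CPM of Abcg2 ipsilaterally (15.4 to 24.4, from 76 UMIs in 52 barcodes) and 8.03 CPM contralaterally (5.42 to 11.5, from 30 UMIs in 20 barcodes). The ratio was 2.43 (1.57 to 3.84), and the marker gates give these barcodes no type.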

How the results depend on the processing

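None of the 10 members passed the fold under any of the 16 alternatives, and the 9 members outside the gate were highest in endothelial barcodes under the 5 run for that, as was Cldn5 also with a gate that leaves it out (added after seeing the data). Of 140 alternative values of single members, 137 stayed within counting error and 3 moved. Cldn5 moved to -0.03 with barcodes weighted equally and without barcodes past another gate, and Slc16a1 to -0.02 without barcodes past another gate. A turn of sign was counted only for log2 ratios of at least 1 in size, which no member had. Within counting error, Tjp1, Abcb1a and Abcg2 lay on the other side of 0 in some alternatives. The 140 values include changes of the added CPM, which can hardly move genes at these levels. The median of the 10 ranged from -0.14 to -0.03. The median difference in detection over members, -1.49 points in the first draw, ranged from -2.19 to 0.31, and for Slc7a5 it was -20.2, -15.4 and -16.5 points without barcodes past another gate, with the gate that leaves out Cldn5 and without Scrublet calls. Slc7a5 stayed between -0.71 and -0.62 on the log2 scale. The log2 ratio of the 9 summed members, -0.11, was -0.0662 with a gate that leaves out Cldn5 and -0.0529 without barcodes past another gate. Of the 6 list genes past the fold, 2 (Lcn2 and Ackr1, not Jam3, Stmn2, Icam1 or Vcam1) were left with 20 CPM added and 4 with the fullest barcode of each gene left out, an alternative added after seeing the data; the cause was not tested, but added CPM by construction draws low genes toward 0. The endothelial share differed by -4.76 to -4.33 points between sides across 7 settings. Scaling by median of ratios shifted all genes by 0.022 on the log2 scale. No paired analysis was possible because each side has 1 library, and for the same reason no replicate could be left out. The sort was not set for endothelial cells, so their share and the side of the brain cannot be told apart from sorting in these libraries, and pooling of animals hides their spread. Depth limits genes with few UMIs: Slc7a5 in precursors rests on 29 ipsilateral and 39 contralateral UMIs.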

Other observations

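Slc7a5 was also low ipsilaterally in barcodes that passed no gate, with 3.08 CPM (1.59 to 5.38, 12 UMIs) ipsilaterally and 14.7 CPM (11.1 to 19.2, 55 UMIs) contralaterally. Mfsd2a in the same barcodes had 15.9 CPM (12.2 to 20.4) ipsilaterally and 9.36 CPM (6.52 to 13.02) contralaterally, the other direction from its values in oligodendrocyte stages. In mural barcodes, 18 ipsilaterally and 15 contralaterally, Tjp1 had 180 CPM (119 to 260) ipsilaterally and 145 CPM (89.7 to 221) contralaterally. Slco1a4 had 32.1 CPM (10.4 to 74.8, 5 UMIs in 3 barcodes) ipsilaterally and 0 UMIs contralaterally. Cldn5, Ocln, Mfsd2a and Slc16a1 had 0 UMIs in mural barcodes on both sides. Intervals of these sums reach 23.7 CPM ipsilaterally and 25.5 CPM contralaterally. Barcodes rich in Cldn5 are called endothelial first, so its 0 is partly set by the rule. Tjp1 in astrocytes had 89.4 CPM ipsilaterally and 60.9 CPM contralaterally, a ratio of 1.47 whose interval includes 1 (0.98 to 2.21).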
